A study of Mus musculus with 2 samples.

Results

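The BCL2 family decides whether a cell keeps its mitochondria intact or dies by apoptosis, and 9 of its genes were described here by their open chromatin in mouse megakaryocyte progenitors. Bcl2l1, Bcl2 and Mcl1 encode antiapoptotic proteins, Bak1 and Bax encode the effectors, and Bcl2l11, Bid, Bad and Bbc3 encode BH3-only proteins. They are 9 of 21938 protein-coding genes of the mouse annotation, and 99 of 80938 open regions were assigned to them. A region was assigned if it touched the gene body or lay within 50 kb of the gene's 5′ end. Regions there that were promoter regions of other genes only were left out. A promoter region had at least 1 base no more than 1 kb from a start site of the gene, counting protein-coding transcripts, and a distal region had no such start site of any gene that close. There were 16 promoter regions and 83 distal regions, and 0 regions were claimed by 2 of the genes.

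The assay was ATAC-seq, which marks accessible DNA by the places where a transposase can insert adapters. The cells were primary megakaryocyte progenitors, the precursors of the platelet-forming megakaryocytes, from adult male C57BL/6J mice aged 5 to 6 weeks. The 1 group held 2 libraries of 50000 cells, numbered as biological replicates 1 and 2 and labelled as separate biosamples of the same donor identifier, so the spread between them may be technical. The labels give no sort markers, no genotype beyond the strain and no treatment, and replicate 1 lists 2 instrument models. The analysis rests on the authors' peak lists, and read depth is unknown.

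BCL2, BCL-XL (the product of Bcl2l1) and MCL1 hold the effectors BAX and BAK in check. BH3-only proteins bind the antiapoptotic members, and some of them also activate the effectors directly. Once active, BAX and BAK form pores in the outer mitochondrial membrane and release cytochrome c, which starts the caspase cascade. In the platelet lineage BCL-XL restrains BAK and so sets platelet lifespan, and BCL-XL together with MCL1 keeps megakaryocytes alive.

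Signal is the value that the authors' peak caller gave to the strongest summit of a region, with no stated scaling between libraries. Values for both libraries together come from the conservative list, which was thresholded on the irreproducible discovery rate (IDR), a measure of how reproducibly a peak ranks. Values per replicate come from each library's own IDR-thresholded list, and mean ± SD is over those 2 lists. The lists held 61735 regions in replicate 1 and 60098 in replicate 2. The labelled cell type was set beside marker genes. Of 10 megakaryocyte markers 9 had an open promoter, 7 in replicate 1 and 8 in replicate 2, with a median promoter signal of 6.01 (5.29 to 13.9) in the conservative list. Of 4 markers each, 3 erythroid, 3 granulocyte, 2 monocyte, 2 B-cell, 1 mast-cell and 0 T- and NK-cell genes had an open promoter. Their open promoters had median signals of 11.6 for erythroid, 6.16 for granulocyte, 15 for monocyte and 15 for B-cell genes, and 7.90 for the mast-cell gene, so markers of other cell types reached signals above the megakaryocyte median. How much such cells add to the regions below was not tested. In bulk ATAC-seq a region open in fewer cells and one less open in each cell cannot be told apart.

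All 9 genes had a promoter region in the conservative list, in replicate 1 and in replicate 2. Over all protein-coding genes the percentage with one was 61 in the conservative list, 57.9 in replicate 1, 57.1 in replicate 2 and 55.7 in both replicates. The promoters of most of the 9 were weaker than the middle of all open promoters. The median of their strongest promoter signals was 9.66, beside 11.2 over the 13386 genes with an open promoter, and 8 of the 9 lay below that gene median. Among the stronger 50% of regions by signal, 5 of the 9 genes retained a promoter region, while 44.4% of all genes had one.

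Among the antiapoptotic genes Bcl2l1 had the strongest promoter of the 9. Its signal was 11.4 in replicate 1 and 11.5 in replicate 2 (mean 11.5 ± 0.081 SD, n = 2), and 11.9 in the conservative list, the 56.8th percentile of genes with an open promoter. Bcl2l1 lies on the minus strand at chr2:152780668-152831728 in mm10, with 8 annotated protein-coding start sites, and both of its promoter regions were found in both libraries. The weaker one, with its summit 1.03 kb inside the gene, had 9.65 in replicate 1 and 8.55 in replicate 2.

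Mcl1, whose short-lived product is needed by many blood cells, had a promoter signal of 8.83 in replicate 1 and 9.52 in replicate 2 (9.17 ± 0.488 SD, n = 2). Its gene spans chr3:95658788-95663176 on the plus strand. A weaker region of 4.20 in its first intron was in the list of replicate 1, and replicate 2 held it at 4.38 in its more inclusive pseudoreplicated list alone. The 150 bases upstream of the 5′ end are shown because they lie under the strongest promoter region. Capitals mark GGAAGT, the core of ETS sites, and GGGCGG (here as its reverse complement), the core of SP and KLF sites.
Mcl1 upstream of the 5′ end, chr3:95658638-95658787, + strand: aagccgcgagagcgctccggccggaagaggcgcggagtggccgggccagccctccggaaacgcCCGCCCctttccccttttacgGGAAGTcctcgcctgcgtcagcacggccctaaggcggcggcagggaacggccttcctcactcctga

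Bcl2, the founding member of the family, had a weak promoter. Its strongest promoter region had a signal of 5.93 in replicate 1 and 4.95 in replicate 2 (5.44 ± 0.694 SD, n = 2), the 4.07th percentile in the conservative list. That region lay in an exon with its summit 1.75 kb inside the gene (chr1:106538178-106714274, minus strand). The region over the 5′ end itself, 1402 bp wide and made of 5 summits, had 3.68 in replicate 1 and was absent from the thresholded list of replicate 2. The pseudoreplicated list of replicate 2 held it at 4.06. In both replicates the promoter signal of Bcl2 was below those of Bcl2l1 and Mcl1, and the ranges did not overlap.

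The effectors were close to each other. Bax had 9.90 and 9.86 in replicates 1 and 2 (9.88 ± 0.028 SD, n = 2) from its 1 promoter region, which is 889 bp wide and covers the 5′ end of chr7:45461697-45466898 (minus strand). Bak1 (chr17:27019810-27029009, minus strand) had 9.43 and 9.18 (9.31 ± 0.180 SD, n = 2). The main promoter region of Bak1 also lay within 1 kb of a start site of its neighbour Ggnbp1, so its signal cannot be assigned to either gene alone. A weaker region in the first intron of Bak1 had 4.96 in replicate 1 and 6.32 in replicate 2. Bax is shown because its promoter held the MYC-type E-box CACGTG, marked in capitals together with GGGCGG on either strand. Of the promoter regions of the 9 genes, that of Bax alone had a CACGTG match within 75 bp of its summit, and 6.05% of all promoter regions had one. The Bax region held 3 such matches, and the bases shown hold 1 of them.
Bax upstream of the 5′ end, chr7:45466899-45467048, + strand: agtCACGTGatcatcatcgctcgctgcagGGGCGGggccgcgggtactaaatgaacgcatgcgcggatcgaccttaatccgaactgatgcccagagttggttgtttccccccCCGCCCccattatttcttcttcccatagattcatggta

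Among the BH3-only genes Bad had the highest promoter signal and Bbc3 the lowest. Bad, whose product is inactivated by growth-factor-driven phosphorylation, had a promoter signal of 9.35 in replicate 1 and 10.5 in replicate 2 (9.93 ± 0.823 SD, n = 2). That region, at the 5′ end of chr19:6941861-6951899 (plus strand), also covered a start site of the neighbour Gpr137, and its summit lay 51 bp from the nearest start site, that of Gpr137. Bad had another promoter region 9.73 kb inside the gene, near an internal start site, with 8.57 in replicate 1 and 7.73 in replicate 2.

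Bid, which carries the death-receptor signal to mitochondria once caspase 8 has cut it, had 6.59 and 6.76 (6.67 ± 0.117 SD, n = 2). Bcl2l11, which encodes BIM, had 6.08 and 6.47 (6.28 ± 0.277 SD, n = 2). Both genes had 1 promoter region each, found in both libraries, at the 10.5th percentile for Bid and the 8.36th for Bcl2l11. Each also had a region of higher signal just beyond 1 kb, counted as distal. With a promoter window of 2 kb, the conservative promoter signal was 7.30 in place of 6.82 for Bid. For Bcl2l11 it was 7.40 in place of 6.46. Percentiles were not computed for that window. Bbc3, which encodes the p53-induced protein PUMA, was lowest with 4.07 in replicate 1 and 4.42 in replicate 2 (4.24 ± 0.246 SD, n = 2), the 0.885th percentile. Its 3 promoter regions had signals of 3.18, 3.24 and 4.36 in the conservative list, and the strongest, 1.73 kb inside the gene, was the only one of the 3 in the thresholded lists of the libraries. The regions 1.16 and 1.73 kb inside the gene had GC contents of 74.7% and 73.1%, beside a median of 59.2% over all promoter regions, and the weakest, 0.325 kb inside the gene, had 49.9%. The part of base composition in these low values was not tested.

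**Figure D1:**
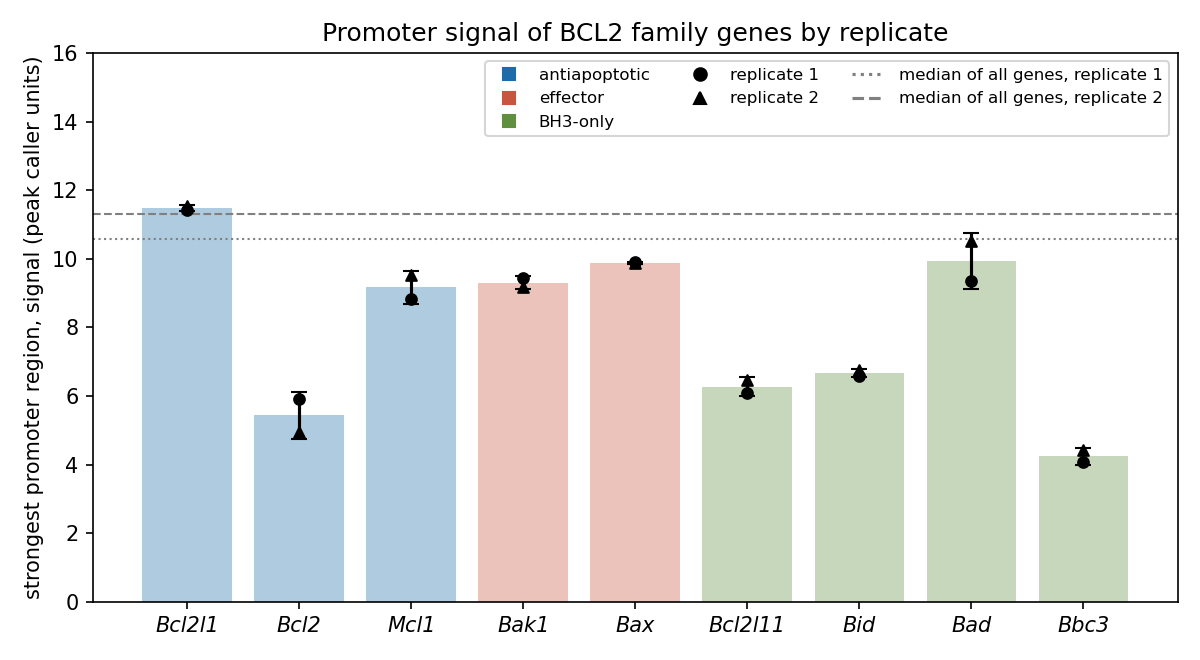
Signal of the strongest promoter region of each gene (peak caller units) in the list of each replicate; bars are means, error bars SD over 2 replicates, and lines are the medians over all genes with a promoter region in that replicate. Bcl2l1 lies above both gene medians (10.6 and 11.3), and Bbc3, Bcl2, Bcl2l11 and Bid lie far below them.

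In order of the mean over replicates, the promoter signals ran Bcl2l1, Bad, Bax, Bak1, Mcl1, Bid, Bcl2l11, Bcl2, Bbc3. The ranges of the replicates overlapped between Bad and Bax and between Bak1 and Mcl1. They did not overlap between any other neighbours in the order. Beyond its neighbours, the range of Bad also overlapped those of Bak1 and Mcl1, so its place above them is not settled. In the conservative list Bax stood above Bad. Of the 9 places in that list's order, 7 were kept in replicate 1 and 5 in replicate 2. With 2 values against 2, no exact permutation test between genes can reach a low p, so none was run. The order did not follow role, since each of the antiapoptotic and BH3-only classes held a gene near the top and a gene near the bottom. The −log10 p of the regions is the peak caller's evidence for a peak. In the conservative list it also placed Bcl2l1 highest and Bcl2 and Bbc3 lowest, but the genes between them changed places. By that measure 7 of the 9 lay below the gene median of 139.5, and Mcl1, at 141.2, lay just above it. Bax stood at the 22.2nd percentile by −log10 p and at the 47.6th by signal. Bid stood at the 40.5th by −log10 p and the 10.5th by signal, and Bcl2l11 at the 30.2nd and the 8.36th. The low standing of Bid and Bcl2l11 by signal, and their place below Bax, therefore depended on the measure.

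Distal regions were numerous at most of the 9 genes. Each gene had at least 1, as did 83.6% of all protein-coding genes. The median was 10 for each gene, beside 4 over all protein-coding genes, and 7 of the 9 lay above that gene median against 45.8% of all genes. All protein-coding genes here include those without a promoter region, whereas each of the 9 had one. Distal counts were not compared within genes with an open promoter alone. Counting a distal region for a gene only where that gene had the nearest start site, the median was 4 beside 1, and 6 of the 9 exceeded the gene median against 44.4% of all genes. In all, 53 of the 83 distal regions had their nearest start site at one of the 9 genes. By position 34 lay in an intron of the assigned gene, 1 in its exon, 24 in another gene and 24 between genes. The signals ran from 3.28 to 17.3 with a median of 7.25, beside 8.75 over the 64653 regions outside promoters, so the distal regions were many rather than strong. Of them, 27 reached the median of all regions outside promoters, which 50% of those regions reach, and 3 reached the 90th percentile, against 10.1% of those regions.

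**Figure D2:**
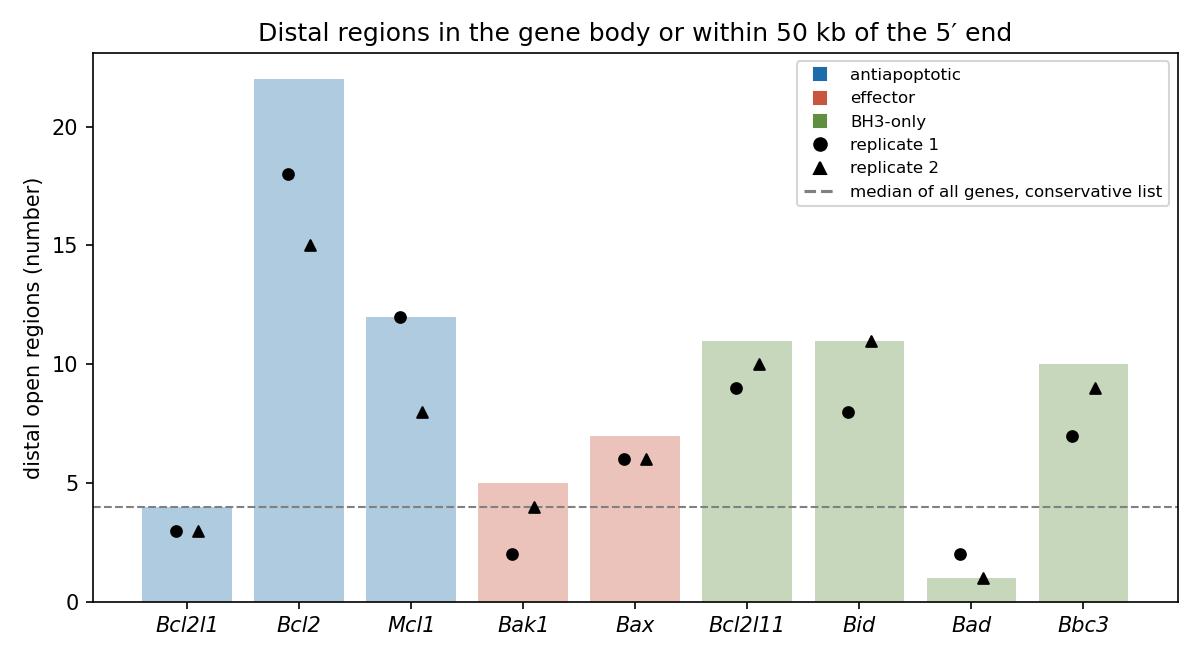
Number of distal regions of each gene in the conservative list (bars) and in the list of each replicate (points); the dashed line is the median of 4 over all protein-coding genes. Bcl2 has 22, and Bcl2l1 and Bad do not exceed the line in the conservative list.

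Bcl2 had 22 distal regions in the conservative list, 18 in replicate 1 and 15 in replicate 2. This was the 99.4th percentile of all genes, and the gene is long, so its window spanned 226 kb. Per 100 kb of window the count was 9.73, still the 93.0th percentile. Of the 22, 17 lay in intron 1, the large intron of Bcl2, 3 in introns of the upstream neighbour Kdsr, which encodes a sphingolipid synthesis enzyme, and 20 had Bcl2 as the nearest start site. The strongest, in intron 1 at 18.4 kb, had 13.9 in replicate 1 and 14.9 in replicate 2. Further along intron 1, a region at 86.9 kb had 11.5 and 12.9, and one at 35.9 kb had 8.96 and 11.9. A region at -21.5 kb in Kdsr had 11.4 in replicate 1 and was missing from the thresholded list of replicate 2, whose pseudoreplicated list held it at 12.1. Bcl2 therefore combined one of the weakest promoters of the 9 with the most distal regions by count. Per 100 kb of window, however, Mcl1 (12), Bcl2l11 (11), Bid (11) and Bbc3 (10) had more. Within 50 kb of the 5′ end alone, without the rest of the gene body, Bcl2 had 8. The strongest distal region of Bcl2 is shown, and within 75 bp of its summit it held 0 matches to the motifs searched, which are listed further on.
Bcl2 intron 1, 18.4 kb from the 5′ end, chr1:106695834-106695984, + strand: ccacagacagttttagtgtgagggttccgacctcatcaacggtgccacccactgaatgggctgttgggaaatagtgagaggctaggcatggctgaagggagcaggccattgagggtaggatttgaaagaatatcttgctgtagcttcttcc

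Mcl1 had 12 distal regions, 12 in replicate 1 and 8 in replicate 2, and 11 of the conservative 12 lay between genes. Of the conservative 12, 6 had Mcl1 as the nearest start site. Mcl1 is short, and its density of 12 regions per 100 kb was at the 97.9th percentile of genes. The strongest at -25.7 kb lay nearer to a start site of the neighbour Ensa and had 9.50 in replicate 1 and 11.8 in replicate 2. The next, at -13.3 kb with Mcl1 as nearest start site, had 10.5 in each. It is shown for its pairs of ETS (GGAAGT) and NFY (CCAAT) matches, in capitals on either strand.
Mcl1 at -13.3 kb, chr3:95645417-95645567, + strand: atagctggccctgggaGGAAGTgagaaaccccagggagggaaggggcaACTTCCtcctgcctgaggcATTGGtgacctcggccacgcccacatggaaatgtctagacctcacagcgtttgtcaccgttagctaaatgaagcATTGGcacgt

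Bcl2l1, with the strongest promoter, had 4 distal regions in the conservative list and 3 in each replicate. Of these, 3 lay in intron 2 of Bcl2l1. They had signals of 7.18 and 6.63 at 14.0 kb, 6.66 and 6.54 at 17.3 kb, and 8.68 and 8.03 at 42.4 kb, in replicates 1 and 2. The fourth, in an intron of Tpx2 at -46.7 kb, was in neither thresholded replicate list. Bcl2l1 had the nearest start site for 2 of the 4. All 4 held a GATA match, as did 21% of all distal regions. Such a match is AGATAA or TGATAA, the site of the erythroid and megakaryocyte factor GATA1 and its relatives. The 2 strongest of them in intron 2 are shown, with capitals for GATA, ETS and CAGATG (an E-box bound by TAL1 complexes) on either strand.
Bcl2l1 intron 2, 14.0 kb from the 5′ end, chr2:152817615-152817765, + strand: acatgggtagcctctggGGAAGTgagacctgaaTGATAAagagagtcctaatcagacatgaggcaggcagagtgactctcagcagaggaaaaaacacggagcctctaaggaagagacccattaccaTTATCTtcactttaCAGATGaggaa
Bcl2l1 intron 2, 42.4 kb from the 5′ end, chr2:152789217-152789367, + strand: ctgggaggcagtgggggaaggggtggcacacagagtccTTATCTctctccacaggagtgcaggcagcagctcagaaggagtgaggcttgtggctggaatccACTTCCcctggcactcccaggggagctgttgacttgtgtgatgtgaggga

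The effectors had fewer distal regions than most of the other genes, and these lay mainly nearest to other genes. Bak1 had 5, with 2 in replicate 1 and 4 in replicate 2, and Bax had 7, with 6 in each. For each effector 1 of these regions had the effector as its nearest start site. Most distal regions of Bbc3 and the 1 of Bad were also nearest to other genes. The strongest for Bak1 lay between genes at 16.9 kb, with 10.5 in replicate 1 and 12.1 in replicate 2. That of Bax, at 15.4 kb in intron 12 of Gys1 (muscle glycogen synthase), had 15.7 and 12.6, one of the larger differences between the libraries. It held a CTCF core match. The window of Bax held 8 other protein-coding 5′ ends, beside a median of 2 over all genes.

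Among the BH3-only genes Bcl2l11, Bid and Bbc3 each had many distal regions and Bad had few. Bcl2l11 had 11, with 9 in replicate 1 and 10 in replicate 2, and all 11 had Bcl2l11 as the nearest start site. Of these, 6 lay in its own introns (gene at chr2:128126038-128162547, plus strand) and 4 in introns of the upstream neighbour Acoxl. The strongest lay at 41.2 kb, beyond the 3′ end, with 12.5 in replicate 1 and 14.3 in replicate 2. The next, in intron 2 at 18.2 kb, had 10.8 and 13.2. Both are shown. The intronic one held 3 GATA matches, a TAL1-type E-box and GTAAACA, a FOXO site, next to a GATA match, and the other held a GATA match and a p53 decamer.
Bcl2l11 intron 2, 18.2 kb from the 5′ end, chr2:128144138-128144288, + strand: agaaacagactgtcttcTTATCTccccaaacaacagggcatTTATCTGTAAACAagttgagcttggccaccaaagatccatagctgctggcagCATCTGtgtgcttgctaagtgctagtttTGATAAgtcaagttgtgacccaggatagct
Bcl2l11 at 41.2 kb, chr2:128167138-128167288, + strand: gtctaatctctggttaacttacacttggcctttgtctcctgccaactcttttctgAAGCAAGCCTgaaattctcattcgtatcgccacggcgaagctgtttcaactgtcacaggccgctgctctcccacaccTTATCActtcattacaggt

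Bid (chr6:120891930-120916853, minus strand) had 11 distal regions, 8 in replicate 1 and 11 in replicate 2, of which 6 lay in its own introns. The strongest, between genes at -8.28 kb, had 11.5 in replicate 1 and 12.5 in replicate 2. A region at 42.8 kb lay in intron 5 of Bcl2l13, another member of the family, whose start site was nearer than that of Bid. It had 12.4 and 10.8. Each of these held a GATA match, and the first is shown.
Bid at -8.28 kb, chr6:120925057-120925207, + strand: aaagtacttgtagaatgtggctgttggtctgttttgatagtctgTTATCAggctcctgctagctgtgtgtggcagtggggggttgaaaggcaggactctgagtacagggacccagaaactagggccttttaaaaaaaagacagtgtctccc

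Bbc3 (chr7:16308393-16318205, plus strand) had 10 distal regions, 7 in replicate 1 and 9 in replicate 2. Of the conservative 10, 4 had Bbc3 as the nearest start site. Its strongest region was also the strongest of all 83, with 14.9 in replicate 1 and 16.3 in replicate 2, and 17.3 in the conservative list, the 96.5th percentile of regions outside promoters. It lay at 18 kb in intron 8 of the neighbour Sae1, a subunit of the SUMO-activating enzyme, and its nearest start site was that of Bbc3. Apart from this one, the distal regions of Bbc3 had conservative signals between 3.28 and 8.28. The strongest region is shown for its 3 matches, in order TGANTCA (the site of AP-1 and of NFE2, a megakaryocyte factor), CAGATG and a single p53 decamer.
Bbc3 at 18 kb, chr7:16326336-16326486, + strand: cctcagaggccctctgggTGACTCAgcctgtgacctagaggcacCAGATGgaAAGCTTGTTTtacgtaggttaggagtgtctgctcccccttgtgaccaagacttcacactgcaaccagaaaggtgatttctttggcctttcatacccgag

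Bad had 1 distal region, at -26.3 kb in an intron of Esrra, with 5.96 in replicate 1 and 6.61 in replicate 2. The window of Bad held 10 other protein-coding 5′ ends and 8 promoter regions of other genes. Open regions near those start sites count as promoter regions and leave fewer that can be called distal.

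**Figure D3:**
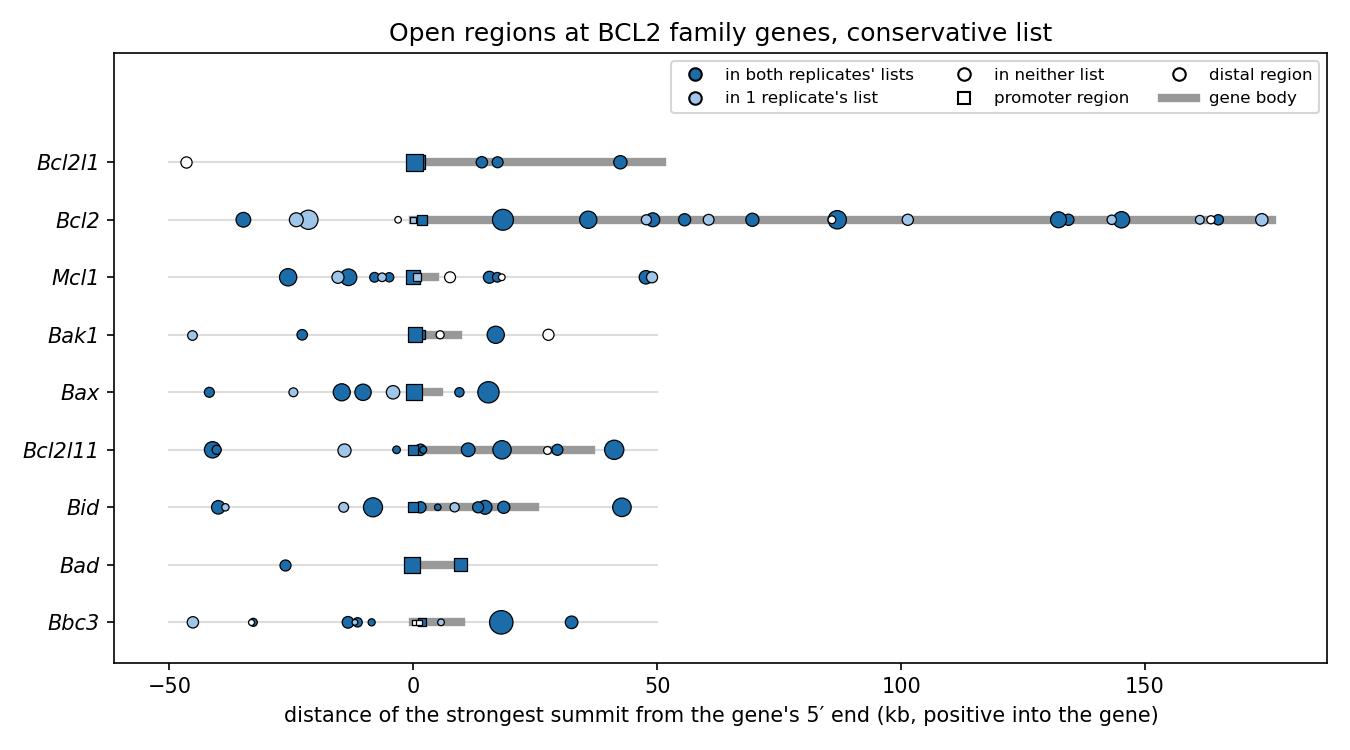
Position of the 99 regions relative to the 5′ end of each gene (kb, positive into the gene); the area of a symbol grows with signal, squares are promoter regions, and fill gives the number of replicate lists that hold the region. Bcl2 carries a chain of 17 regions along its intron 1, whereas Bad has 2 promoter regions and 1 distal region.

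The strongest distal region exceeded the strongest promoter region at 7 of the 9 genes, and Bcl2l1 and Bad were the exceptions. The same 7 genes did so in replicate 1 and in replicate 2. This is common, since 68.8% of the 12925 genes with both kinds of region showed it in the conservative list, 66% in replicate 1 and 64.7% in replicate 2. The ratio of distal to promoter signal was 3.65 in replicate 1 and 3.70 in replicate 2 for Bbc3, 2.35 and 3.01 for Bcl2, 2.06 and 2.20 for Bcl2l11, and 1.88 and 1.84 for Bid. Bax had 1.59 and 1.28, Bak1 1.12 and 1.32, and Mcl1 1.19 and 1.24. Bcl2l1 had 0.760 and 0.696 and Bad 0.638 and 0.628. Each ratio used the strongest distal region of that replicate's own list, which for Bid and Mcl1 was not the same region. For Bid it lay at 42.8 kb in replicate 1 and at -8.28 kb in replicate 2. For Mcl1 it lay at -13.3 kb in replicate 1 and at -25.7 kb in replicate 2. Ranked by −log10 p instead of signal, the distal region was ahead at 6 of the 9 genes in the conservative list, 5 in replicate 1 and 6 in replicate 2. By that measure the percentage over all genes was 37.7, 35.8 and 35.5. By either measure the maximum was taken over all distal regions of a gene. The median number of these was 10 for the 9 genes, beside 4 over all protein-coding genes. Genes with like numbers of distal regions were not compared, so the part of that number in these shares was not tested. Mcl1 changed side, its promoter having 141.2 and its highest distal region 90.1, and at Bak1 the 2 were nearly equal with 102.2 and 102.4.

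**Figure D4:**
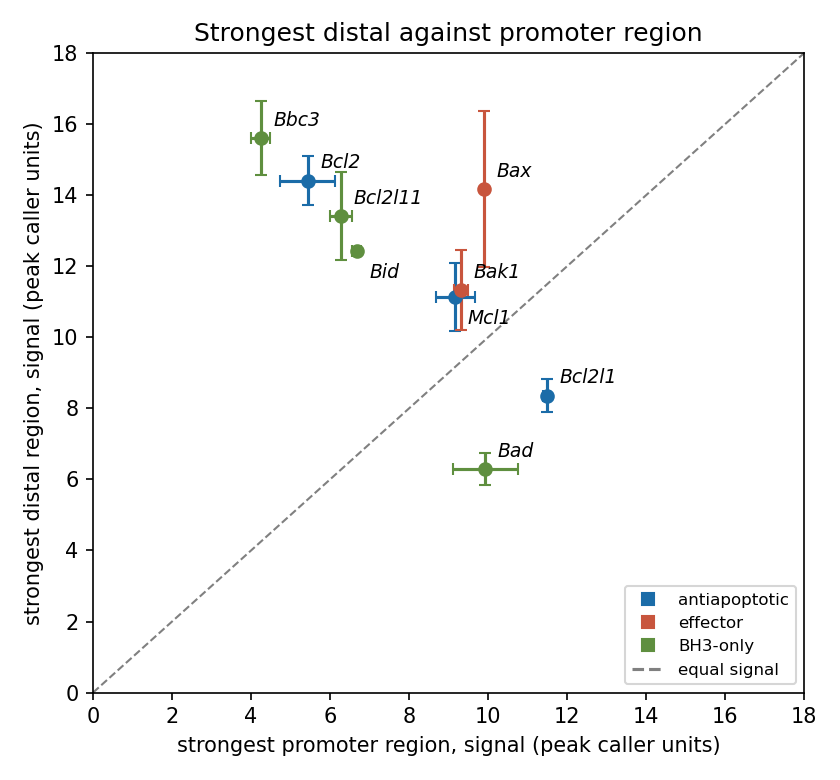
Signal of the strongest distal region in each replicate's list against that of the strongest promoter region (peak caller units), as mean and SD over 2 replicates. The dashed line marks equal signal. For Bid and Mcl1 the strongest distal region differed between replicates, so their vertical SD spans different regions. Bbc3, Bcl2, Bcl2l11 and Bid combine low promoter signal with the largest distances above the line, and Bcl2l1 and Bad stand below it.

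Of the 99 regions 76 were in the list of replicate 1, beside 73.4% of all regions, 75 in that of replicate 2, beside 71.6%, and 64 in both. Those 64 are 64.6% (Wilson 95% interval 54.8 to 73.4%, counting error only), beside 63.9% of all regions. Of the distal regions 52 of 83 were in both lists, beside 59.7% of all distal regions, 10 in replicate 1 only, 11 in replicate 2 only and 10 in neither. Of the promoter regions 12 of 16 were in both lists, 75% (50.5 to 89.8%) beside 80.8% of all promoter regions. Signal in the 64 matched regions differed by a median log2 ratio of replicate 2 to replicate 1 of 0.04 (SD 0.16 over regions), beside 0.08 (SD 0.18) over all matched regions. The regions at 134.3 kb in Bcl2, with a log2 ratio of -0.34, and at 15.4 kb from Bax, with -0.32, lay more than 2 SD from the median of all matched regions. They are 2 of 64, and 5.27% of all matched regions lie that far out.

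Motif matches were counted in the 151 bp around each strongest summit on both strands. A GATA match (AGATAA or TGATAA) stood in 25 of the 83 distal regions, 30.1% beside 21% of all distal regions, and in 0 of the 16 promoter regions, beside 7.05% of all promoter regions. The AP-1 and NFE2 site TGANTCA stood in 12 distal regions (14.5% beside 7.95%), the TAL1-type E-box CAGATG in 14 (16.9% beside 14.8%) and the FOXO site GTAAACA in 4 (4.82% beside 1.66%). ETS (GGAAGT) stood in 25.3% of them beside 26.1%, RUNX (TGTGGTT) in 7.23% beside 9.32%, and the STAT site TTCNNNGAA in 2.41% beside 3.67%. NFY (CCAAT) stood in 22.9% beside 16.4% and the MYC-type E-box in 6.02% beside 3.26%. The SP and KLF core GGGCGG stood in 12% beside 6.83%, but among the stronger 50% of regions it stood in 1 of 26, 3.85% beside 6.83%. The p53 decamer stood in 7.23% beside 5.12% and the CTCF core in 7.23% beside 7.81%. A single p53 decamer counted as a match, whether or not another lay beside it. In the promoter regions GGGCGG was the most frequent match, in 11 of 16 (68.8% beside 46.4%), at 8 of the 9 genes, Bak1 excepted. The letters of some motifs overlap in a sequence, and a match describes the sequence without showing binding. No test was made of these shares, and the median GC content of the distal regions was 49.8% beside 48.0% for all distal regions. The median GC content of the 16 promoter regions was 62.7%, beside 59.2% for all promoter regions, and its part in the GGGCGG share was not tested.

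**Figure D5:**
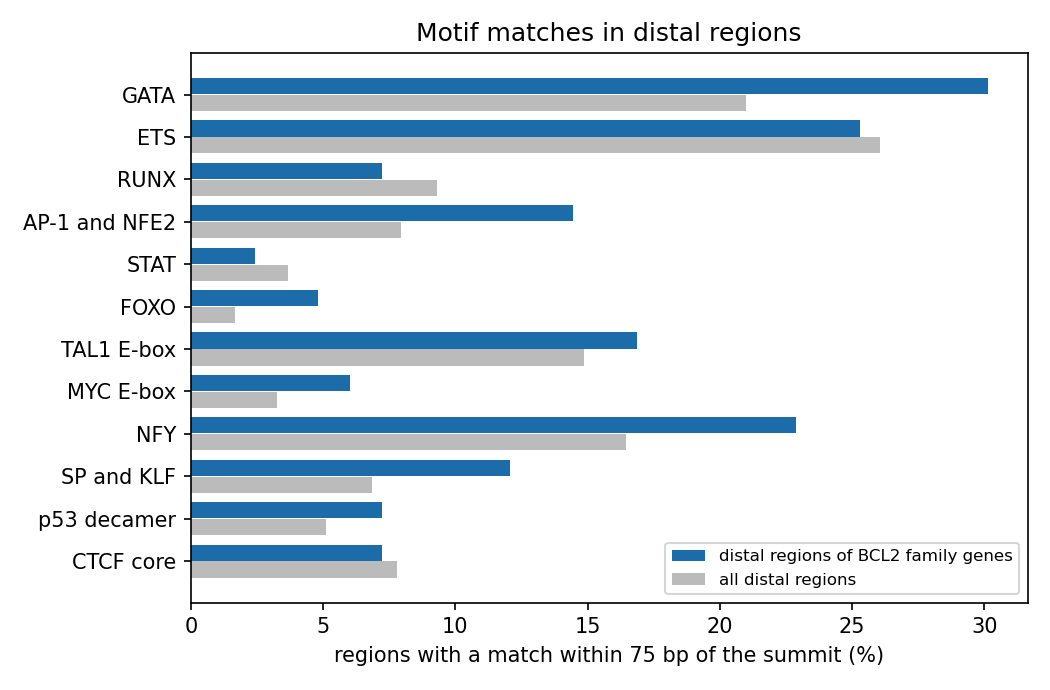
Percentage of distal regions with at least 1 match within 75 bp of the summit, for the 83 distal regions of the 9 genes (blue) and all 64653 distal regions (grey). GATA is the most frequent match at the 9 genes (30.1%), and ETS is the most frequent over all distal regions (26.1%).

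The rest of the apoptosis machinery was set beside the 9 genes. In the conservative list promoter regions stood at 14 of 16 other BCL2 family genes and 14 of 14 apoptosome, caspase and inhibitor genes. They stood at 6 of 6 death receptor genes and 7 of 8 upstream regulators, beside 61% of all genes. In the same order the counts were 13, 13, 5 and 7 in replicate 1 and 12, 14, 5 and 7 in replicate 2. The median promoter signal of the open genes in those lists was 8.84, 10.8, 10.3 and 8.19, and that of the 9 genes was 9.66. In the conservative list the highest signals belonged to Bcl2l2, which encodes the antiapoptotic BCL-W, with 18.1, to the death receptor gene Fas with 16.6, and to Aifm1, a mitochondrial flavoprotein gene, with 16. Replicates 1 and 2 had 16.3 and 16 for Bcl2l2, 14.3 and 16.2 for Fas, and 14.5 and 15.2 for Aifm1. In both replicates Cycs, the cytochrome c gene, lay just above Aifm1 with 14.6 and 15.2, and in replicate 1 Endog, a mitochondrial nuclease gene, had 14.7. Cycs and Endog were named after their values were seen. Thus Bcl2l2 had a stronger promoter than any of the 9 in both libraries. Among the other BCL2 family genes, Bcl2l10 and Hrk had no promoter region. The medians of distal regions for these lists were 6, 5.5, 6 and 8, each below the 10 of the 9 genes and above the 4 of all genes.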

How the data were processed

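The authors deposited narrowPeak lists on mm10, per the file headers and labels, for each library and for both together. The signal of each peak and its −log10 p are the authors' values as deposited. Not given in the sources used here are the aligner, the peak caller, their versions and any shift of reads, steps that could move summits and signals. Read depth is unknown. A deposited ranked list gives the −log10 of the IDR of each peak pair. Records with the same interval were merged to 1 region. Genes came from GENCODE M21 (21938 protein-coding genes, 54361 start sites of protein-coding transcripts), and sequence from the RefSeq copy of GRCm38.p6, the assembly of mm10. Regions were shared when at least 50% of either was covered. With 1 group of 2 replicates no test between conditions exists, so values stand beside those over all genes or regions. The procedures were tested on simulated data (Python 3.11.15, pandas 2.3.3). The 9 genes, the gene lists, motifs and settings were chosen with earlier results of these data known. All 9 genes were named, and from the other apoptosis lists the 3 with the highest promoter signal and those without a promoter region. Some genes that this rule names are not reported here. Alternatives were other peak lists, each replicate alone, region strength, promoter, locus and motif windows and overlap rules, and, chosen after seeing the data, ranking by −log10 p.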

Additional observations from a re-analysis of the deposited data

How the results depend on the processing

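All 9 genes had a promoter region under every peak list, promoter window and replicate tried, except among the stronger 50% of regions, where 5 did. The number of assigned regions rose from 99 to 163 in the replicated and 159 in the pseudoreplicated list and to 155 with a locus window of 100 kb, and was 32 in the stronger 50% of regions and 80 to 81 with 1 replicate left out. The median of distal regions for each gene moved from 10 to 17 in the replicated list, 3 in the stronger 50% and 6 with a 20 kb window, and was 7 to 8 with 1 replicate left out. The median promoter signal was 10.5 in the stronger 50% and 8.83 to 9.18 with 1 replicate left out. The median of the strongest distal signals, 13.5, was 13.7 in the stronger 50%, 13.2 with a 20 kb window, 14.9 with a 100 kb window and 12.4 to 12.5 with 1 replicate left out. The strongest distal region exceeded the promoter at 7 genes under the alternatives tried, except 9 genes with a 100 kb window, 6 by −log10 p and 3 in the stronger 50%, where 4 genes had no promoter region and 2 no distal region. The share of regions in the list of a replicate was 99.0% for both replicates with the pseudoreplicated lists. GATA matches stood in 7 of 26 distal regions among the stronger 50% (26.9%, beside 19.8% of all such distal regions) and in 21 (25.3% beside 16%) and 26 (31.3% beside 25.2%) of 83 with motif windows of 50 and 100 bp each side. The share with GGGCGG was below that of all distal regions in the stronger 50%, 3.85% beside 6.83%. Without the rest of the gene body, Bcl2 had 8 distal regions in place of 22. Of 298 values for single genes and motifs under the alternatives, 222 stayed within the limits used and 76 moved beyond them. The cause of these changes was not tested beyond how each alternative is built. No paired analysis was possible because there is 1 group.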
